A study of Rattus norvegicus with 15 samples.

Results

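The 9 genes Spp1, Hmox1, Lgals3, Gpnmb, Cd68, Ccl2, Trem2, Gdf15 and Akr1b8, genes of phagocytes and of tissue injury, were read from a count table of 22314 genes in rat dorsal CA1. They were chosen from earlier results of these same libraries, so their levels and group differences are a description and carry no test of their own. All 9 were among the 14880 genes that passed the filter on low counts. The table held 15 libraries in 3 groups of 5, from wild-type male Sprague-Dawley rats of 8 to 9 weeks. The Rnf20-labelled trained group (replicates 4, 8, 14, 18 and 20) received Accell siRNA against Rnf20, an E3 ligase for histone H2B, and then contextual fear conditioning, in which a place is paired with a shock. The scrambled trained group (replicates 5, 6, 10, 15 and 16) received Scr-siRNA, the control sequence, and the same training, and the scrambled naive group (replicates 1, 2, 9, 11 and 12) received Scr-siRNA without training. Every group had thus been injected into dorsal CA1, the trained groups 5 days before training. Neither uninjected animals nor naive animals given Rnf20 siRNA are among the groups. The interval from training to dissection is not given in the sources used here, nor is it stated that each library came from its own animal, so a p-value here speaks of the spread among these libraries, which may be technical.

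After injury to brain tissue, microglia and incoming macrophages take up dying cells, lipid-rich debris and blood. They then make more lysosomal proteins, lipid receptors and secreted factors such as osteopontin, while heme and oxidants switch on heme oxygenase and other antioxidant enzymes through Nrf2. Trem2, a lipid-sensing receptor of microglia and macrophages, is needed in mice for the full switch of microglia to this state. The tissue held all brain cell types, so fewer cells of a type and less RNA per cell cannot be told apart in any value here.

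The sequences just upstream of the start sites of Gpnmb, Cd68 and Spp1 are shown because AP-1, a stress-responsive factor, is among the regulators of phagocyte genes, and these genes differ in whether its motif is present. RefSeq promoters on the rat assembly GRCr8 were found for 6 of the 9 genes, as 7 entries; Hmox1, Lgals3 and Ccl2 had none. The 250 bases before the start site are printed, 5′ to 3′ along the gene, with each match to the AP-1 motif TGANTCA in capitals. Gpnmb lies on the plus strand at chr4:79340878-79341127, and Cd68 and Spp1 lie on the minus strand at chr10:54882442-54882691 and chr14:5619805-5620054.
Gpnmb: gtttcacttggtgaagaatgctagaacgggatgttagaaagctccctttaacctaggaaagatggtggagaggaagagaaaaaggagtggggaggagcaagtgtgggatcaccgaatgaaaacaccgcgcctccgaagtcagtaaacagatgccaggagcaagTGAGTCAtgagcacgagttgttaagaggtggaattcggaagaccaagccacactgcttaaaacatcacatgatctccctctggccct
Cd68: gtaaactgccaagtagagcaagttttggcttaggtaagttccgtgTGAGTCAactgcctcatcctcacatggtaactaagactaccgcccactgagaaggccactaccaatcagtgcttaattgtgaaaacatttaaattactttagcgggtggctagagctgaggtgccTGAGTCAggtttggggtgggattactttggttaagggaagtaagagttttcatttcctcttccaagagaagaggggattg
Spp1: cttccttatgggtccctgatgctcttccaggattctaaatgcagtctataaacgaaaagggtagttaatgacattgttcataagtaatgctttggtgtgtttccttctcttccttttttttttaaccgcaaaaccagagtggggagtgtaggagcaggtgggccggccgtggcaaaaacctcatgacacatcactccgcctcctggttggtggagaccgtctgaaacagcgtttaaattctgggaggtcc
Gpnmb had the motif 87 bases before its start site, Cd68 had it 205 and 80 bases before, and Spp1 had none in this window. The Trem2 entry held a match that began 3 bases before the start site and ran across it. In windows of 250 bases before and 50 after the start, searched on both strands, 3 of the 7 entries held TGANTCA, against 7.33% of 33469 rat promoters. The antioxidant response element core TGACNNNGC was in 1 of the 7, an entry of Gdf15, against 12.1% of all promoters. The letters of the TATA box, TATAAA, were in 2 of the 7, against 14.2% of all promoters. They lay 204 bases before the start site of Spp1 and 28 bases before that of a Gdf15 entry. The NF-kB-like motif (GGG and CC with 5 bases between) was in 2 of the 7, both of Gdf15, against 47.3%. The E-box CACGTG and the C/EBP-ATF motif TGATGNAA were in 0 of the 7, against 6.42% and 3.98% of all promoters. These are matches of letters and describe the windows only.

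Total counts were 12537250 to 18458527 in the Rnf20-labelled trained libraries, 15342480 to 20644425 in the scrambled trained and 14249375 to 17046535 in the scrambled naive libraries. Levels are given as CPM (the share of a library's counts, scaled to a fixed total) and are not scaled by gene length, so they are compared between libraries and not between genes. Rnf20 itself stood at 42.0 ± 2.32 CPM in Rnf20-labelled trained libraries, at 43.2 ± 5.39 in scrambled trained and at 41.8 ± 2.28 in scrambled naive libraries (SD, n = 5 each). Its transcript was therefore not lower under the label Rnf20 siRNA (log2 fold change -0.04, SE 0.08, against scrambled trained), and every direction drawn for that group is one of the labelled libraries.

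Across the 9 genes the highest mean was in the scrambled trained group in 9 of 9 and the lowest in the scrambled naive group in 9 of 9. By median the scrambled trained group was highest in 9 of 9 and the naive group lowest in 7. For the other 2, Cd68 and Gdf15, the Rnf20-labelled median was below the naive one. The groups nevertheless overlapped widely, because the libraries within each trained group ranged from below or near the naive level to many times above it. Scrambled trained replicates 15 and 10 and Rnf20-labelled trained replicate 18 were the highest 3 of the 15 libraries for 8 of the 9 genes. Rnf20-labelled trained replicates 4 and 14 were the lowest 2 for 8 of the 9, and lay below every naive library for 9 of 9. The exceptions were Cd68, where Rnf20-labelled trained replicate 8 lay above scrambled trained replicate 10, and Gdf15, where scrambled trained replicate 6 lay below Rnf20-labelled trained replicate 4.

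**Figure D1:**
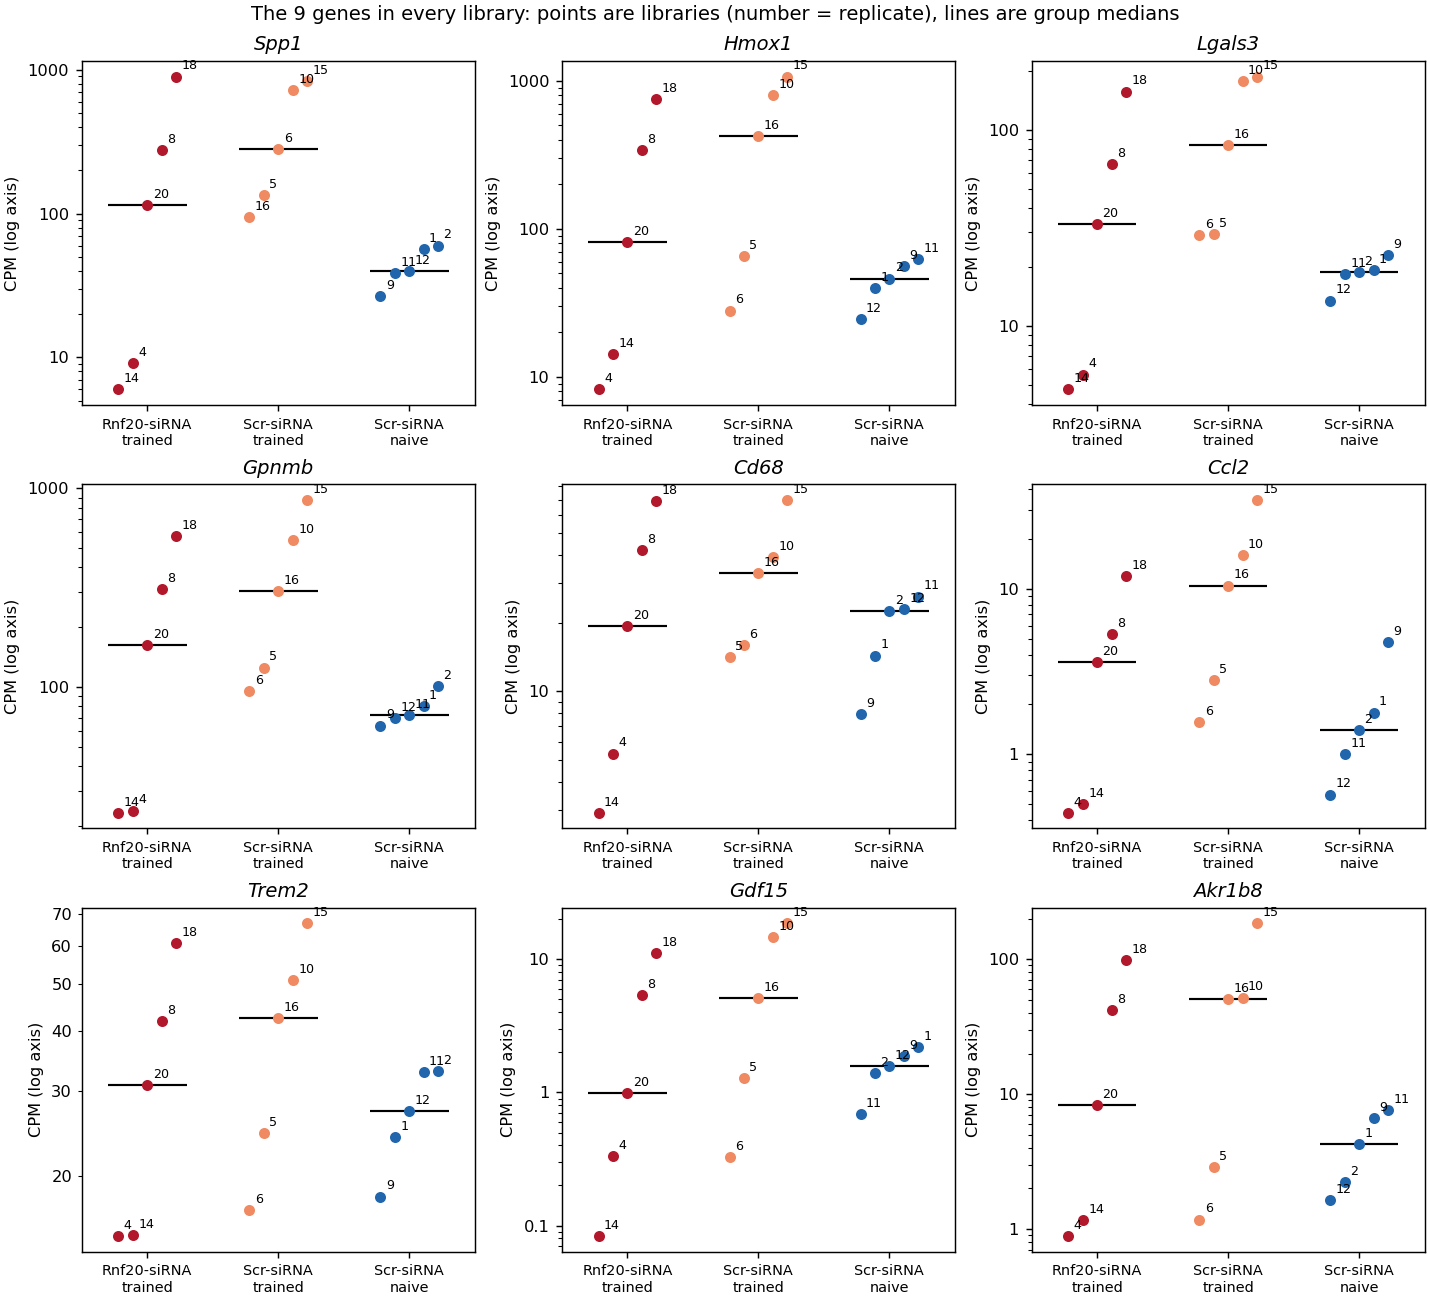
Level of each of the 9 genes in CPM (y axis, logarithmic) in the libraries labelled Rnf20 siRNA and trained, scrambled trained and scrambled naive (x axis); each point is 1 library with its replicate number and each line a group median. Scrambled trained replicates 10 and 15 and Rnf20-labelled trained replicate 18 sit at or near the top of every panel, and Rnf20-labelled trained replicates 4 and 14 at or near the bottom.

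Among the secreted factors, Spp1 encodes osteopontin, a phosphoprotein that binds integrins and CD44 and that phagocytes secrete in injured tissue. It stood at 6.00, 9.08, 115, 278 and 895 CPM in Rnf20-labelled trained replicates 14, 4, 20, 8 and 18. It stood at 95.1, 134, 279.8, 725 and 830.0 CPM in scrambled trained replicates 16, 5, 6, 10 and 15. In scrambled naive replicates 9, 11, 12, 1 and 2 it stood at 26.8, 38.5, 39.6, 56.6 and 59.9 CPM. All 5 scrambled trained libraries lay above all 5 naive ones, whereas the Rnf20-labelled trained libraries spanned both sides of the naive range, with 3 above it and 2 below. The fitted log2 fold change was 3.22 (SE 1.04) for scrambled trained against naive libraries and -0.66 (SE 0.95) for Rnf20-labelled against scrambled trained libraries.

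Ccl2 encodes the chemokine that draws monocytes through its receptor CCR2. It had 0.443, 0.500, 3.61, 5.35 and 12.0 CPM in Rnf20-labelled trained replicates 4, 14, 20, 8 and 18. Scrambled trained replicates 6, 5, 16, 10 and 15 had 1.57, 2.82, 10.5, 16.0 and 34.4 CPM, against 0.570, 1.00, 1.41, 1.79 and 4.79 CPM in scrambled naive replicates 12, 11, 2, 1 and 9. The groups overlapped in each comparison, and the highest naive library, replicate 9, exceeded 2 of the 5 scrambled trained ones. The log2 fold change was 2.76 (SE 0.91) for scrambled trained against naive libraries. It was -1.57 (SE 0.85) for Rnf20-labelled against scrambled trained libraries, the lowest of the 9 in that comparison.

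Gdf15 encodes a circulating stress cytokine of the TGF-beta superfamily. Its reads were few, from 1 count in the lowest library to 407 in the highest. It stood at 0.0833, 0.332, 0.991, 5.35 and 11.1 CPM in Rnf20-labelled trained replicates 14, 4, 20, 8 and 18, where the first rests on 1 count. It had 0.327, 1.29, 5.14, 14.7 and 18.6 CPM in scrambled trained replicates 6, 5, 16, 10 and 15, against 0.690 to 2.18 CPM with a median of 1.57 in scrambled naive libraries. In each trained group 2 or more libraries lay within or below the naive range, and the Rnf20-labelled median, 0.991 CPM, was below the naive one.

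Among the surface receptors, Trem2 had the narrowest range of the 9 genes. It stood at 15.0, 15.1, 30.9, 41.8 and 60.7 CPM in Rnf20-labelled trained replicates 4, 14, 20, 8 and 18. It stood at 17.0, 24.5, 42.5, 51.0 and 66.8 CPM in scrambled trained replicates 6, 5, 16, 10 and 15, against 18.1, 24.1, 27.3, 32.9 and 33.0 CPM in scrambled naive replicates 9, 1, 12, 11 and 2. Of the 10 trained libraries, 5 lay above the highest naive library and 3 below the lowest. The log2 fold change was 0.58 (SE 0.40) for scrambled trained against naive libraries and -0.30 (SE 0.40) for Rnf20-labelled against scrambled trained libraries. Tyrobp, the adaptor through which Trem2 signals, averaged 53.0 ± 41.9 CPM in Rnf20-labelled trained, 74.4 ± 30.2 in scrambled trained and 40.5 ± 9.21 in scrambled naive libraries (SD, n = 5 each).

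Gpnmb is a transmembrane glycoprotein of lysosomes and the cell surface, made by phagocytes loaded with lipid. It had 23.2, 23.8, 163, 310.3 and 574 CPM in Rnf20-labelled trained replicates 14, 4, 20, 8 and 18. Scrambled trained replicates 6, 5, 16, 10 and 15 had 95.4, 125, 304, 550.2 and 873 CPM, against 63.8, 69.8, 72.4, 80.3 and 101 CPM in scrambled naive replicates 9, 12, 11, 1 and 2. The naive libraries were tightly grouped, and of the 5 scrambled trained libraries only replicate 6 lay inside their range. The log2 fold change of Gpnmb was -0.83 (SE 0.75) for Rnf20-labelled against scrambled trained libraries and 2.33 (SE 0.78) for scrambled trained against naive libraries. For Mitf, a transcription factor that regulates Gpnmb, these were -0.06 (SE 0.26) and 0.04 (SE 0.26).

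Cd68, a lysosomal membrane glycoprotein used as a stain for phagocytes, had 2.92, 5.32, 19.3, 42.1 and 69.0 CPM in Rnf20-labelled trained replicates 14, 4, 20, 8 and 18. It had 14.2, 16.0, 33.3, 39.1 and 69.7 CPM in scrambled trained replicates 5, 6, 16, 10 and 15, against 7.94 to 26.2 CPM with a median of 22.6 in scrambled naive libraries. Both trained groups overlapped the naive one, and the Rnf20-labelled median of 19.3 CPM was below the naive median. Lgals3 encodes galectin-3, a sugar-binding protein that gathers on damaged lysosomes. It had 4.75, 5.65, 33.2, 67.2 and 157 CPM in Rnf20-labelled trained replicates 14, 4, 20, 8 and 18. It had 29.0, 29.5, 83.8, 178 and 187 CPM in scrambled trained replicates 6, 5, 16, 10 and 15, against 13.5 to 23.0 CPM with a median of 18.8 in scrambled naive libraries. Like Spp1, Lgals3 was above every naive library in all 5 scrambled trained libraries and in 3 of the 5 Rnf20-labelled trained ones.

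Among the stress enzymes, Hmox1 encodes the inducible heme oxygenase, which breaks heme down to biliverdin, iron and carbon monoxide. It stood at 8.25, 14.3, 81.1, 341 and 749.8 CPM in Rnf20-labelled trained replicates 4, 14, 20, 8 and 18. It stood at 28.1, 65.2, 425, 798 and 1066 CPM in scrambled trained replicates 6, 5, 16, 10 and 15, against 24.6, 39.9, 46.1, 56.1 and 62.3 CPM in scrambled naive replicates 12, 1, 2, 9 and 11. Scrambled trained replicate 6 lay inside the naive range, and the other 4 of its group lay above it. Hmox2, the constitutive paralog, averaged 76.1 ± 8.28 CPM in Rnf20-labelled trained, 78.2 ± 4.61 in scrambled trained and 80.8 ± 3.42 in scrambled naive libraries (SD, n = 5 each). Its log2 fold change for scrambled trained against naive libraries was -0.05 (SE 0.08), against 3.38 (SE 1.11) for Hmox1. Nfe2l2, which encodes Nrf2, an activator of Hmox1, had a log2 fold change of 0.29 (SE 0.16).

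Akr1b8 encodes an aldo-keto reductase that detoxifies reactive aldehydes. It had 0.886, 1.17, 8.28, 42.0 and 98.0 CPM in Rnf20-labelled trained replicates 4, 14, 20, 8 and 18. It had 1.18, 2.88, 50.6, 51.9 and 184 CPM in scrambled trained replicates 6, 5, 16, 10 and 15, against 1.64, 2.23, 4.23, 6.67 and 7.59 CPM in scrambled naive replicates 12, 2, 1, 9 and 11. Of its 5 scrambled trained libraries 3 lay above the naive range, 1 within it and 1 below. Its log2 fold change of 3.70 (SE 1.28) for scrambled trained against naive libraries was the highest of the 9 and had the widest error. Akr1b7, a close paralog with which Akr1b8 may share reads, had 0 to 4 counts per library, and Akr1b10 was not analysed here.

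**Figure D2:**
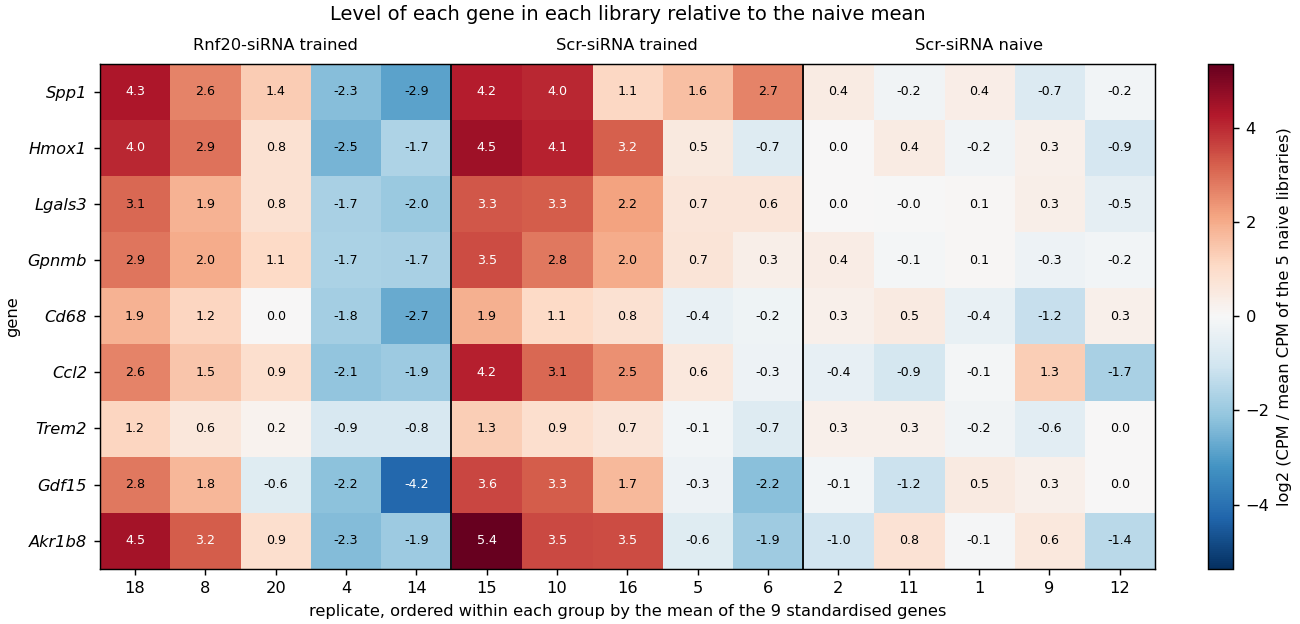
Log2 of each library's CPM over the scrambled naive mean (colour) for the 9 genes (y axis) in the 15 libraries (x axis), with the libraries labelled Rnf20 siRNA first, then scrambled trained and scrambled naive. The columns of scrambled trained replicates 10, 15 and 16 and Rnf20-labelled trained replicates 8 and 18 are high for all 9 genes, and those of Rnf20-labelled trained replicates 4 and 14 are low for all 9.

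Set against the naive mean, the libraries differed in the size of the ratios and in the order of the genes. The median of the 9 ratios was 7.41 in Rnf20-labelled trained replicate 18, from 2.24 for Trem2 to 21.9 for Akr1b8. It was 12.0 in scrambled trained replicate 15, from 2.47 for Trem2 to 41.2 for Akr1b8, and 9.53 in scrambled trained replicate 10. Rnf20-labelled trained replicate 8 and scrambled trained replicate 16 were intermediate, at 3.61 and 3.93. In Rnf20-labelled trained replicate 20 the median was 1.78, from 0.642 for Gdf15 to 2.60 for Spp1. In scrambled trained replicate 5 it was 1.42, from 0.644 for Akr1b8 to 3.03 for Spp1. In both of these libraries Spp1 was above every naive library while Gdf15 was below the naive mean. Rnf20-labelled trained replicates 4 and 14 were below naive, at 0.232 and 0.261, with a highest ratio of 0.554 and 0.557, both for Trem2.

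Scrambled trained replicate 6 also had its highest ratio for Spp1, over a wider range. Its Spp1 was 6.31 times the naive mean, while its Gdf15 was 0.212 and its Akr1b8 0.263 times that mean and the median of its 9 ratios was 0.821. Scrambled trained replicate 16 had Hmox1 at 9.28 and Akr1b8 at 11.3 times the naive mean, above its Spp1 at 2.15 times. Over the 15 libraries, Pearson's r of log2 CPM was 0.97 between Hmox1 and Akr1b8, 0.85 between Spp1 and Hmox1, and 0.75 between Spp1 and Akr1b8. The 36 pairs of genes had r of 0.73 to 0.99 with a median of 0.91, highest for Lgals3 with Gpnmb and lowest for Cd68 with Ccl2. With group means subtracted the median was still 0.91, so the shared variation lay within groups as well as between them. These coefficients describe 15 libraries that share their depth and scaling among genes.

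**Figure D3:**
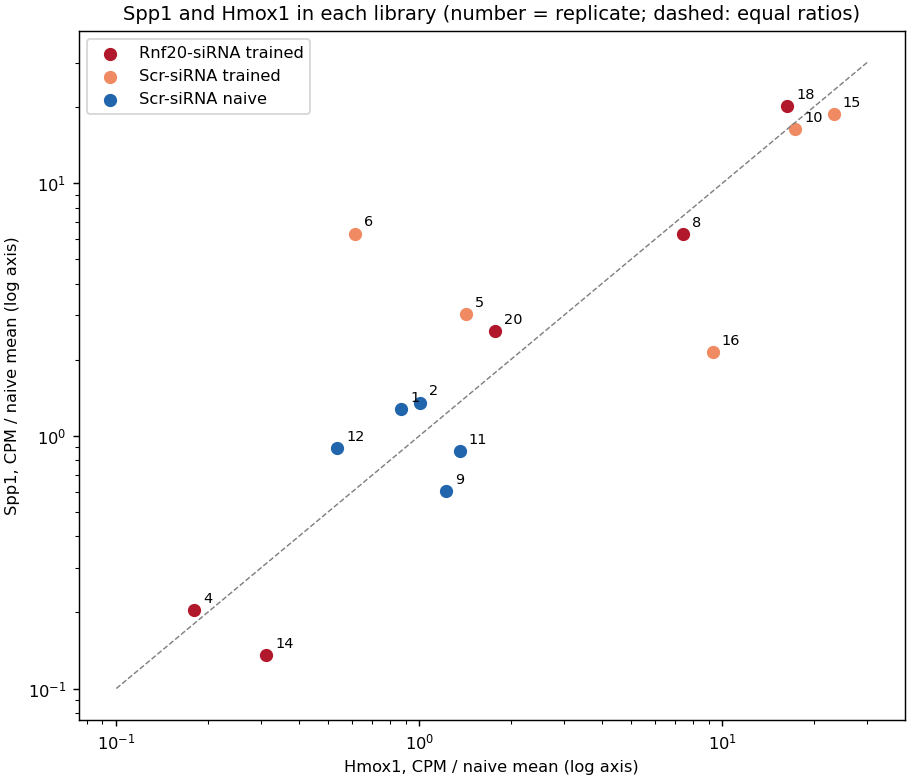
Spp1 (y axis) against Hmox1 (x axis) in each library, both as CPM over the scrambled naive mean on logarithmic axes; points are libraries labelled with replicate numbers and coloured by group, and the dashed line marks equal ratios. Scrambled trained replicate 6 lies far above the line (6.31 against 0.614) and scrambled trained replicate 16 below it (2.15 against 9.28).

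The spread lay mostly in the trained groups. The SD on the log2 scale ran from 0.89 for Trem2 to 3.12 for Spp1 in Rnf20-labelled trained libraries, and from 0.80 for Trem2 to 3.04 for Akr1b8 in scrambled trained libraries. In scrambled naive libraries it ran from 0.25 for Gpnmb to 1.05 for Ccl2, and for each of the 9 genes it was lower than in either trained group. Pooled over the groups, the SD was 0.72 for Trem2, between 1.30 and 2.12 for Cd68, Gpnmb, Lgals3, Ccl2, Gdf15, Spp1 and Hmox1, and 2.50 for Akr1b8. The median of the pooled SD over the 14086 genes with a mean of at least 1 CPM was 0.22. By group, the median SD of these genes was 0.218 in Rnf20-labelled trained, 0.233 in scrambled trained and 0.167 in scrambled naive libraries. A lower spread in naive libraries was thus also seen over all these genes and is not particular to the 9. From the lowest to the highest library the ratio was largest for Gdf15, at 223 (95% exact interval 39.8 to 8835). The lowest Gdf15 library held 1 count. The ratio was 208 for Akr1b8 (128 to 364), 149 for Spp1 (118 to 191), 129 for Hmox1 (110 to 153) and 4.45 for Trem2 (3.91 to 5.09). These intervals cover counting error only, and the libraries set against each other are the extremes of the 15.

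Training under scrambled siRNA was the first comparison. All 9 log2 fold changes were above 0, with a median of 2.45 against -0.01 over all genes, and 47.2% of all genes were above 0. By edgeR's quasi-likelihood test with Benjamini-Hochberg adjustment, 0 of the 9 had an adjusted p under 0.05, where 0% of the 14880 genes did. DESeq2 likewise called 0 of the 9, where it called 0.39% of all genes, and limma-voom called 0 of the 9 (0% of all genes). The smallest edgeR adjusted p of any gene was 0.379. At an unadjusted p under 0.05 there were 7 of the 9, against 9.97% of all genes, the other 2 being Cd68 and Trem2. The groups did not overlap for 2 of the 9, Spp1 and Lgals3, against 1.75% of all genes. Since these libraries chose the genes, nothing is read from these counts.

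In the second comparison, of Rnf20-labelled with scrambled trained libraries, all 9 log2 fold changes were below 0, from -1.57 for Ccl2 to -0.30 for Trem2. Their median was -0.92, against 0.00 over all genes. None reached 2 standard errors, and the groups overlapped for all 9 (0.659% of all genes did not overlap). By edgeR 0 of the 9 had an unadjusted p under 0.05 (5.61% of all genes) or an adjusted p under 0.05 (0% of all genes), and DESeq2 called 0 of the 9 (0.00672% of all genes). The median moved to -2.02 without Rnf20-labelled trained replicate 18 and to -0.29 without scrambled trained replicate 15. In the last comparison, of Rnf20-labelled trained with scrambled naive libraries, the 9 log2 fold changes ran from 0.27 for Trem2 to 2.75 for Akr1b8, with a median of 1.50. The groups overlapped for all 9 (0.497% of all genes did not overlap), and by edgeR 3 of the 9 had an unadjusted p under 0.05 (2.3% of all genes). An adjusted p under 0.05 was reached by 0 of the 9 with edgeR (0% of all genes) and by 0 of the 9 with DESeq2 (0.00672% of all genes). Without Rnf20-labelled trained replicate 18 this median was 0.58. Each pair of these comparisons has a group of libraries in common, so their values are not independent of each other.

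**Figure D4:**
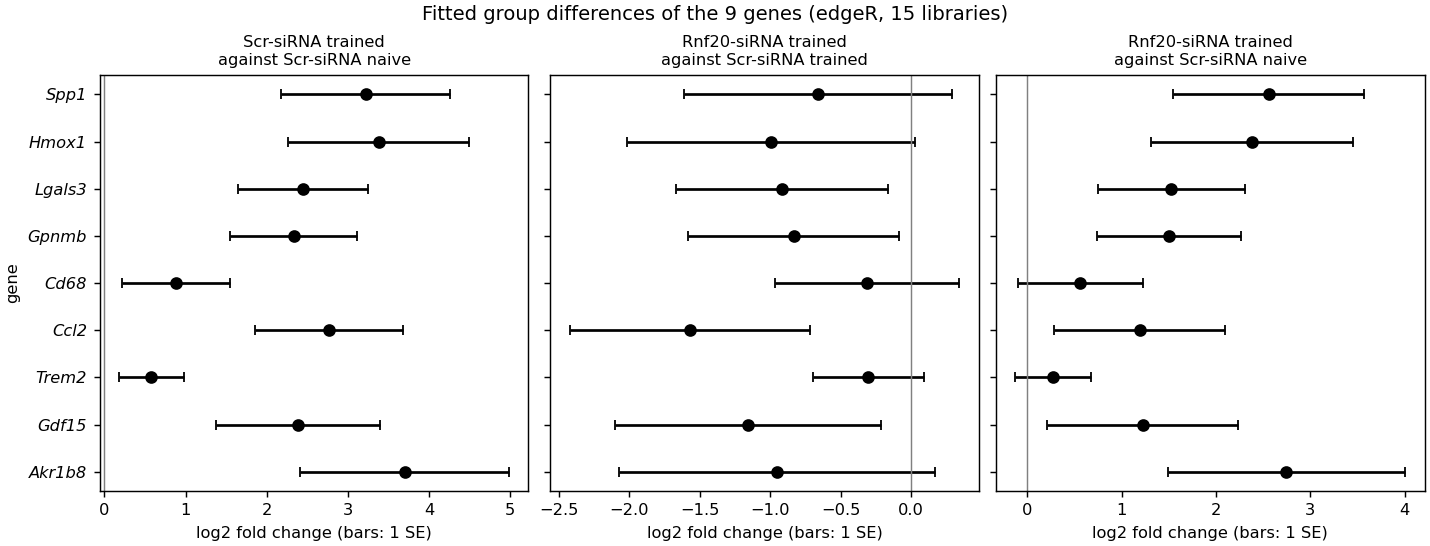
Fitted log2 fold change (x axis, points, with bars of 1 SE) of the 9 genes (y axis) in 3 comparisons: scrambled trained against naive, Rnf20-labelled trained against scrambled trained, and Rnf20-labelled trained against naive. All points are above 0 for both trained groups against naive libraries and below 0 between the trained groups, where no estimate is 2 standard errors from 0.

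Other genes of the same pathways were taken from 9 lists, and by edgeR 0 genes of any list had an adjusted p under 0.05 in any of the 3 comparisons. For scrambled trained against naive libraries, 35 of 38 tested genes of phagocyte lysosomes and lipid handling had log2 fold changes above 0, with a median of 0.37. Over all genes 47.2% were above 0, and 9.97% had an unadjusted p under 0.05 in either direction, which are the shares to set beside each list in this comparison. At that threshold 14 of the 38 were higher and 0 lower. Msr1, a scavenger receptor for modified lipoproteins, averaged 6.63 ± 8.15 CPM in Rnf20-labelled trained, 13.7 ± 11.7 in scrambled trained and 2.25 ± 1.29 in scrambled naive libraries. Fabp5, a fatty acid carrier, averaged 131 ± 42.5, 174 ± 39.6 and 105 ± 3.81 CPM in Rnf20-labelled trained, scrambled trained and scrambled naive libraries (SD, n = 5 each). Its naive libraries had a maximum of 109.6 CPM, below the scrambled trained minimum of 131 CPM, where 1.75% of all genes did not overlap. Msr1 and Fabp5 were named for the smallest p of their list in this comparison, so nothing is read from this.

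Of the 13 tested genes of Trem2 signalling, 12 were above 0, 5 of them at an unadjusted p under 0.05, with a median of 0.61. Plcg2, the phospholipase downstream of Trem2, averaged 5.46 ± 2.69 CPM in Rnf20-labelled trained, 8.40 ± 3.36 in scrambled trained and 4.02 ± 0.330 in scrambled naive libraries. Hcst, the adaptor DAP10, averaged 0.805 ± 0.633, 1.63 ± 0.958 and 0.493 ± 0.273 CPM in the Rnf20-labelled trained, scrambled trained and scrambled naive libraries. Among 10 receptors and partners of osteopontin 7 were above 0, 1 of them at an unadjusted p under 0.05, a share close to the 9.97% over all genes, with a median of 0.30. Cd44, its hyaluronan-binding receptor, averaged 31.5 ± 21.4 CPM in Rnf20-labelled trained, 43.2 ± 26.3 in scrambled trained and 25.3 ± 6.58 in scrambled naive libraries. The integrin subunits Itgb3 and Itga5 had log2 fold changes of 0.83 (SE 0.36) and 0.90 (SE 0.44) for scrambled trained against naive libraries. All 5 tested genes of the galectin list were above 0, 2 of them at an unadjusted p under 0.05, with a median of 0.34. These were Lgals1, Lgals8, Lgals9, the galectin-3 binding protein gene Lgals3bp and the galectin-like gene Lgalsl, so not all of them encode galectins. Lgals1, which encodes galectin-1, averaged 25.8 ± 21.3 CPM in Rnf20-labelled trained, 41.3 ± 23.1 in scrambled trained and 17.3 ± 3.86 in scrambled naive libraries. Lgals9, which encodes galectin-9, had a log2 fold change of 0.56 (SE 0.24) for scrambled trained against naive libraries.

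Of 15 tested chemokines and receptors 12 were above 0 for scrambled trained against naive libraries (47.2% of all genes), 5 of them at an unadjusted p under 0.05 (9.97% of all genes), with a median of 0.73. Ccl7, a monocyte chemokine related to Ccl2, averaged 2.02 ± 2.29 CPM in Rnf20-labelled trained, 6.25 ± 6.80 in scrambled trained and 0.507 ± 0.566 in scrambled naive libraries. Its log2 fold change was 3.60 (SE 0.93) for scrambled trained against naive libraries, with an adjusted p of 0.0192 by DESeq2 and 0.379 by edgeR. Cxcl10, an interferon-induced chemokine, averaged 2.05 ± 0.841 CPM in Rnf20-labelled trained, 8.58 ± 9.91 in scrambled trained and 1.79 ± 0.830 in scrambled naive libraries. The receptor Ccr2 was not analysed here.

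Of 24 tested Nrf2 pathway genes 20 were above 0 for scrambled trained against naive libraries, with a median of 0.26. Of these, 10 had an unadjusted p under 0.05, where 9.97% of all genes did and 47.2% of all genes were above 0. Taldo1, of the pentose phosphate pathway, and Txn1, thioredoxin, had log2 fold changes of 0.38 (SE 0.12) and 0.45 (SE 0.15). The 11 tested genes of heme and iron handling had a median of 0.04, with 7 above 0 and 3 of them at an unadjusted p under 0.05. Among them Blvrb, a biliverdin reductase, averaged 30.6 ± 3.77 CPM in Rnf20-labelled trained, 34.1 ± 6.25 in scrambled trained and 25.8 ± 2.41 in scrambled naive libraries. Slc11a1, the phagosomal metal transporter, averaged 26.5 ± 27.6 CPM in Rnf20-labelled trained, 39.0 ± 28.5 in scrambled trained and 8.62 ± 1.92 in scrambled naive libraries. The 10 aldo-keto reductases had a median of -0.05 with 4 above 0, 1 of them at an unadjusted p under 0.05, close to the share over all genes. Akr1b1, aldose reductase, averaged 64.6 ± 14.8 CPM in Rnf20-labelled trained, 83.6 ± 22.3 in scrambled trained and 59.3 ± 5.42 in scrambled naive libraries. Akr1e2, another reductase of the family, had a log2 fold change of -0.20 (SE 0.11) for scrambled trained against naive libraries.

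Of 18 tested genes of the integrated stress response, through which Gdf15 can be induced, 15 were above 0 for scrambled trained against naive libraries (47.2% of all genes), with a median of 0.16. Of these, 6 had an unadjusted p under 0.05 (9.97% of all genes). In that comparison none of the 9 lists held a gene lower at that threshold. Atf3, a stress-induced transcription factor, averaged 4.06 ± 4.54 CPM in Rnf20-labelled trained, 9.04 ± 7.95 in scrambled trained and 1.89 ± 0.764 in scrambled naive libraries. Ddit3, which encodes CHOP of the same response, had a log2 fold change of 0.05 (SE 0.10) for scrambled trained against naive libraries, against 2.25 (SE 0.73) for Atf3. Eif4ebp1, a translation inhibitor, and Shmt2, a mitochondrial folate enzyme, had log2 fold changes of 0.69 (SE 0.20) and 0.31 (SE 0.09). For Rnf20-labelled against scrambled trained libraries the medians of the 9 lists ran from -0.57 for Trem2 signalling to 0.02 for aldo-keto reductases. At an unadjusted p under 0.05, which 5.61% of all genes reached in either direction, 3 of 13 genes of Trem2 signalling and 3 of 24 of the Nrf2 pathway were lower. The lists of galectins, integrated stress response genes, chemokines and aldo-keto reductases held 1 lower gene each, and no list held a higher one. For Rnf20-labelled trained against naive libraries, where 2.3% of all genes had an unadjusted p under 0.05, the chemokines held 1 higher and 1 lower gene, heme and iron handling held 1 higher gene, and the other lists held none.

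The genes most like the 9, by Pearson's r over 15 libraries between log2 CPM and the mean z-score of the 9, were Ncf1, AABR07021402.1, Vat1, Capg, Arl11, Lyz2, Slc11a1, Pf4, S100a11 and C5ar1, with r of 0.97 to 0.98 among 14077 genes. Ncf1 is a subunit of the phagocyte NADPH oxidase, Lyz2 is lysozyme, C5ar1 is the receptor for complement C5a and Pf4 is a platelet and macrophage chemokine. Ncf1 averaged 40.7 ± 33.1 CPM in Rnf20-labelled trained, 59.1 ± 37.8 in scrambled trained and 28.5 ± 7.09 in scrambled naive libraries (SD, n = 5 each). The least like were Nkiras1, Srpk2, Slc36a4, Ywhag and Rundc3b, with r of -0.91 to -0.90. Of the 10 most like genes, 8 were also among the 10 with group means subtracted, 7 without scrambled trained replicate 15 and Rnf20-labelled trained replicate 18, and 3 by Spearman's coefficient.

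Markers of several cell types varied together with the 9 genes. The 7 border macrophage markers summed to 9.47 to 103 CPM in Rnf20-labelled trained, 15.6 to 87.2 in scrambled trained and 12.4 to 24.7 in scrambled naive libraries. Each r for markers is between their mean log2 CPM and the score of the 9 genes over 15 libraries. That mean takes only markers that passed the filter on low counts. For border macrophages these were 6 markers, with r of 0.95. The 11 homeostatic microglia markers summed to 431 to 770 CPM in Rnf20-labelled trained, 512 to 869 in scrambled trained and 458 to 675 in scrambled naive libraries. The 10 of them that passed the filter had r of 0.78. A sum over several genes and the level of a single gene are unlike measures, so these ranges are not set against those of the 9. The 10 reactive astrocyte markers summed to 2494 to 7035 CPM in Rnf20-labelled trained, 4299 to 7999 in scrambled trained and 3269 to 4811 in scrambled naive libraries, with r of 0.94. The 9 monocyte and neutrophil markers summed to 13.5 to 72.5 CPM in Rnf20-labelled trained, 26.8 to 89.0 in scrambled trained and 21.0 to 58.0 in scrambled naive libraries. The 5 of them that passed the filter had r of 0.78, and S100a8 was at 0 in 3 of the 15 libraries. The 8 pan-neuronal markers summed to 4946 to 8664 CPM in Rnf20-labelled trained, 4312 to 7682 in scrambled trained and 6282 to 7611 in scrambled naive libraries, with r of -0.85. The part of these cell types in the levels of the 9 genes was not tested.

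The 5 red blood cell markers, globins among them, summed to 179 to 748 CPM in Rnf20-labelled trained, 222 to 1808 in scrambled trained and 155 to 262 in scrambled naive libraries, with r of 0.53. For scrambled trained against naive libraries all 5 had an adjusted p under 0.05 by DESeq2, where 0.39% of all genes did, and none by edgeR. Their edgeR log2 fold changes ran from 2.00 (SE 0.47) for Hbb to 3.36 (SE 0.87) for Slc4a1, and their DESeq2 adjusted p from 0.0205 to 0.0393. DESeq2 also called Timp1 among the reactive astrocyte markers, with a log2 fold change of 2.58 (SE 0.59 by edgeR) and an adjusted p of 0.0209, and Opalin among the oligodendrocyte markers, at -0.71 (SE 0.17 by edgeR) and an adjusted p of 0.0349. The part of blood in the levels of the 9 genes was not tested. The highest sum of the red blood cell markers, 1808 CPM, was in scrambled trained replicate 6, whose Hmox1 was 0.614 times the naive mean. Scrambled trained replicates 10 and 15 and Rnf20-labelled trained replicates 8 and 18 had 1095, 802, 722 and 748 CPM. The 9 choroid plexus markers, which come from tissue outside CA1, summed to 85.4 to 1872 CPM in Rnf20-labelled trained, 11.3 to 4321 in scrambled trained and 1436 to 4468 in scrambled naive libraries, with r of 0.02. The CA1 marker Wfs1 was present in every library, at 132 to 1020 CPM. The 6 CA1 pyramidal neuron markers summed to 517 to 899 CPM in Rnf20-labelled trained, 294 to 1588 in scrambled trained and 489 to 1045 in scrambled naive libraries. The 5 of them that passed the filter had r of -0.48. Of the libraries where the 9 genes were highest, Rnf20-labelled trained replicate 18 had a sum of 517 CPM, and scrambled trained replicates 10 and 15 had 294 and 646 CPM. The part of the share of CA1 neurons in these values was not tested.

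**Figure D5:**
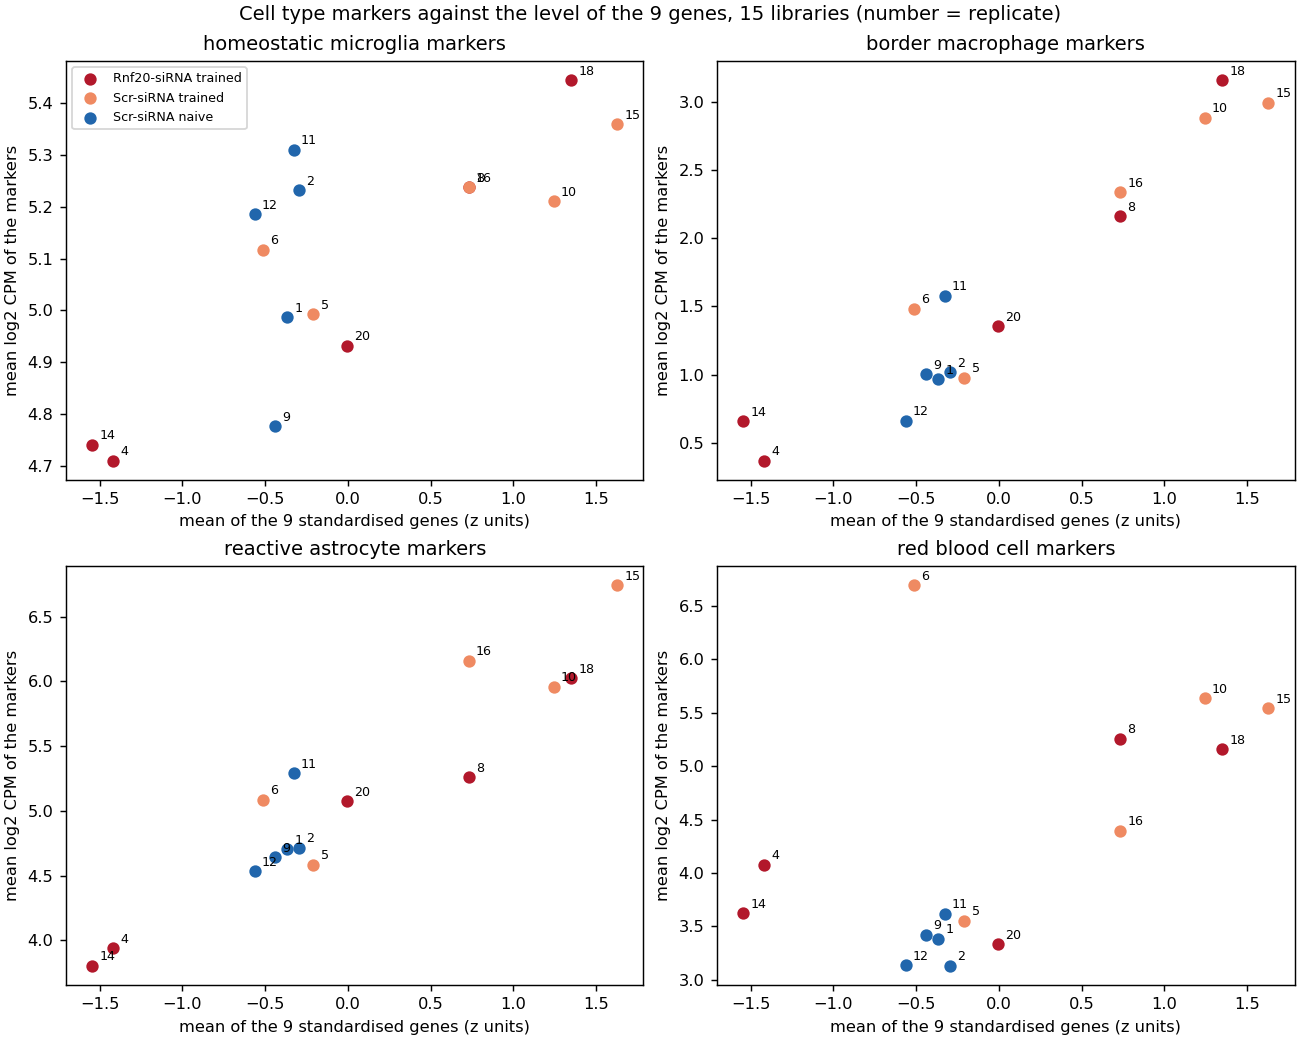
Mean log2 CPM of 4 marker lists (y axes) against the mean z-score of the 9 genes (x axes) in the 15 libraries. Points are coloured by group, with libraries labelled Rnf20 siRNA listed first, and only markers that passed the filter on low counts are used. Border macrophage and reactive astrocyte markers are higher where the score is higher (r of 0.95 and 0.94), and scrambled trained replicate 6 stands at the top of the red blood cell panel.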

How the data were processed

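Libraries of dissected dorsal CA1 were poly(A)-selected and stranded, with 14 PCR cycles, per the labels' protocols. Reads went through Trim Galore and FastQC and were counted against Rnor_6.0 by featureCounts 2.0.1, and DESeq2 was used by the authors, per the submitters' processing notes. The aligner, strand setting and annotation were not given in the sources used here. Raw read counts per gene, as deposited, were used, per the file headers. The authors' normalised table was not used.

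The 9 genes, the pathway and marker lists and the tests were chosen with earlier results of these data known. In R 4.3.3, filterByExpr kept 14880 of 22314 genes (99.9% of counts; 399 genes had no count), and edgeR 4.0.16 fitted all 15 libraries with TMM scaling and the robust quasi-likelihood test (12 residual degrees of freedom), adjusted by Benjamini-Hochberg over all genes tested, with a threshold of 0.05. CPM uses the TMM-scaled library size; log2 CPM adds a prior count of 2. The fit was tried on simulated counts of 2 of the groups, with the same spread for every gene. That setting does not cover genes as variable as the 9. Alternatives were DESeq2 1.42.0, limma-voom (limma 3.58.1), other scalings and filters, and libraries left out. The named genes are the 9, the 10 most and 5 least like them, the 2 of smallest p per pathway list, and partners named for their known roles. Fold changes are not scaled by length, and counting error is set by the total counts given with the results.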

Additional observations from a re-analysis of the deposited data

Results flagged for a closer look

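Of 27 sets of 5 libraries tested (9 genes in 3 groups) for a library far from the rest by Dixon's criterion, 2 held one, where chance gives about 1 in 20. That rate is for independent sets of normally distributed values. These sets were CPM of genes that vary together, and 2 of 27 is near that rate, so nothing is read from the count. Akr1b8 was at 184 CPM in scrambled trained replicate 15, the highest of its group, with the next library at 51.9 CPM. Ccl2 was at 4.79 CPM in scrambled naive replicate 9, the highest of its group, with the next library at 1.79 CPM. Its gap ratio was 0.712, just past the critical value of 0.71.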

How the results depend on the processing

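For scrambled trained against naive libraries, the 0 genes called by edgeR became 58 by DESeq2. For Rnf20-labelled trained against scrambled trained libraries 0 became 1 by DESeq2 (Pkd1), and for Rnf20-labelled trained against naive libraries 0 became 1 by DESeq2 and lay between 0 and 1 with 1 library left out, the 1 being Per1 both times; these genes were named after their values were seen, and the cause was not tested. None of the 9 genes was called under any of 18 alternatives in any comparison. The median log2 fold change of the 9 kept its sign in 18 of 18 alternatives in each comparison, but single genes did not always. For Rnf20-labelled against scrambled trained libraries Cd68 kept its sign in 16, and Trem2 and Akr1b8 in 17 each. For Rnf20-labelled trained against naive libraries Cd68 kept its sign in 16, and Trem2 and Gdf15 in 17 each. All other signs held in 18 of 18. With 1 library left out the median was 2.02 to 2.71 for scrambled trained against naive libraries, -2.02 to -0.29 for Rnf20-labelled against scrambled trained libraries and 0.58 to 1.79 for Rnf20-labelled trained against naive libraries. By limma-voom these 3 medians were 2.00, -1.54 and 0.52, and Gdf15 for Rnf20-labelled trained against naive libraries was -0.19, against 1.22 by edgeR. Without scrambled trained replicates 10 and 15 and Rnf20-labelled trained replicates 14 and 18 they were 1.37, -0.14 and 0.92. The depth limits Gdf15 most, whose lowest library holds 1 count. No paired analysis was possible because the groups share no replicate numbers.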
